A study of Rattus norvegicus with 5 samples.

Results

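Fibroblasts with a high share of Cxcl3 transcripts were examined in single-cell RNA libraries of rat skin before and after irradiation. A barcode counted as a fibroblast if it held at least 500 UMIs (unique molecular identifiers, each standing for a captured transcript), at least 300 genes and at most 20% mitochondrial UMIs. In addition, Col1a1, Col3a1 and Dcn together had to supply at least 1% of its UMIs and more than a set of 6 keratin genes did. Barcodes with any Ptprc UMI, or with 2 or more UMIs of Cyp26b1, of Slc26a7 or of Edn3 and Rspo3 together, were set aside. Members were the fibroblasts in which Cxcl3 supplied at least 0.1% of UMIs. They numbered 1573 of 10378 fibroblasts and of 43408 barcodes passing the filters, out of 49507 barcodes in the matrices. All other fibroblasts served as the comparison.

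Each of the 5 groups was 1 library. The control came from non-irradiated skin, and the others from skin taken 7 d, 14 d, 28 d and 60 d after irradiation. Per the study's methods the animals were male Sprague-Dawley rats, bought at 4 weeks of age, whose buttock skin received a single 30 Gy dose of a 6-MeV electron beam. The methods describe the control, 7 d, 14 d and 28 d samples, and the 60 d library is known here from its label alone. The number of animals behind each library was not given in the sources used here. The matrices held 70073362 to 139566348 UMIs per library, and 11 to 41 barcodes were shared between any pair of libraries.

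Fibroblasts build the collagen matrix of the dermis, and on stimulation by interleukin 1 or tumour necrosis factor they also secrete chemokines that call leukocytes into the tissue. Cxcl3 belongs to the family of CXC chemokines, with Cxcl1, Cxcl2 and Cxcl6, that attract neutrophils through the receptor Cxcr2. Transcription of these genes is switched on by NF-kB, a factor that is held in the cytoplasm by inhibitor proteins until a signal releases it. The other marker genes of the population are Ptx3, which encodes a secreted pentraxin that binds microbes and the hyaluronan matrix, and Il1rl1, which encodes the receptor for interleukin 33.

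Promoter windows were read for the genes that the results turn on, from 250 bases before to 50 bases after the start site, in the gene's own direction (RefSeq, build GRCr8). They are shown so that the kappaB box, a form of the NF-kB site that was searched as GGG, any 3 bases and TTCC on both strands, can be seen in or absent from genes that were higher in members. The windows of Cxcl1 (chr14:17479272-17479571, minus strand) and Cxcl6 (chr14:17596368-17596667, minus strand) lie on the same chromosome, as does that of Cxcl10 (chr14:15988816-15989115, plus strand). Those of Il6 (chr4:5894526-5894825, minus strand) and Tfpi2 (chr4:32941227-32941526, minus strand) share another chromosome, and that of Ptx3 lies at chr2:152797313-152797612 on the plus strand. Capitals mark matches on either strand, and overlapping matches run together.
Cxcl1: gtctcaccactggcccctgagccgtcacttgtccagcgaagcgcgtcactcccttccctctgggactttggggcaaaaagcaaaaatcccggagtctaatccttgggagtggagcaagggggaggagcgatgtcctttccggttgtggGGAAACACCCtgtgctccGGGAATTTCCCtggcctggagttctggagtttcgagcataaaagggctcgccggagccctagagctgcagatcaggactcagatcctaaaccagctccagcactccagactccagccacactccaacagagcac
Cxcl6: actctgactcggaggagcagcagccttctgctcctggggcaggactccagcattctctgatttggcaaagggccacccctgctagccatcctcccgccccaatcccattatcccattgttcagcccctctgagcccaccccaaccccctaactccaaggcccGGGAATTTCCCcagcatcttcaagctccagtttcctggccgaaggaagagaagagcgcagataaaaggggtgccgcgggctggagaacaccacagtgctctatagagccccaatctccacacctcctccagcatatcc
Il6: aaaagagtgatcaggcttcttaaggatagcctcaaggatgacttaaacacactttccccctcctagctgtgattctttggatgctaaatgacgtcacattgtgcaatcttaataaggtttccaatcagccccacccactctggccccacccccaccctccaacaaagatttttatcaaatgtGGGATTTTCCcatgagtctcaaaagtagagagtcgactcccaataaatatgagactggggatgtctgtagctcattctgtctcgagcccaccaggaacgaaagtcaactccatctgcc
Cxcl10: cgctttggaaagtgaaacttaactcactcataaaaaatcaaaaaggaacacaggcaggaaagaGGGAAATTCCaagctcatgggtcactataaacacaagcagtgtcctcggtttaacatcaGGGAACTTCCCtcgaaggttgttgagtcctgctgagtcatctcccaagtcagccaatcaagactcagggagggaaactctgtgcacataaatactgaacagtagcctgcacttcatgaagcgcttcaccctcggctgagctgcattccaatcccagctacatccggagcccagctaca
Tfpi2: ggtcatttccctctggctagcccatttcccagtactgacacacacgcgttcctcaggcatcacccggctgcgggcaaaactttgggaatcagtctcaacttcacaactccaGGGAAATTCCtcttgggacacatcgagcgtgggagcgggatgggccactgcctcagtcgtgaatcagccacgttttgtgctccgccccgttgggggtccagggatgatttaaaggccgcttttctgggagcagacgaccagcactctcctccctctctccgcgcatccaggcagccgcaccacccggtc
Ptx3: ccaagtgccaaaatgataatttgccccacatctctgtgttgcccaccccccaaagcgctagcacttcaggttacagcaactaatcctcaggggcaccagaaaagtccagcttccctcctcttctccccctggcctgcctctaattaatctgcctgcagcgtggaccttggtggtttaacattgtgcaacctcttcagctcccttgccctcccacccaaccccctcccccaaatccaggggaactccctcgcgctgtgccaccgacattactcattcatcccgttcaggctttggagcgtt
Cxcl1 held 3 matches, Cxcl10 held 3, Cxcl6 held 2, Il6 and Tfpi2 held 1 each, and Ptx3 held 0. Other forms of the NF-kB site were not searched, so a window with 0 matches may still hold such a site. In Cxcl1 and Cxcl6 the letters on the plus strand were the same, GGGAATTTCC, starting 84 and 88 bases before the start site. In Il6 the match GGGATTTTCC began 68 bases before it. Of the 15 genes named below as higher in members, 14 had a window, and 6 of these held the box (Tfpi2, Cxcl1, Txnrd1, Il6, Ccl7 and Cxcl10). Of the 15 named as lower, 11 had a window and 3 held it (Hes1, Egr1 and Ccn2). Over all 27457 symbols in the table the share was 5.77%. A second window is shown for Zfp36 (chr1:92799059-92799358, minus strand), from the group of genes that were lower in members, with its CArG box, the site of serum response factor, in capitals.
Zfp36: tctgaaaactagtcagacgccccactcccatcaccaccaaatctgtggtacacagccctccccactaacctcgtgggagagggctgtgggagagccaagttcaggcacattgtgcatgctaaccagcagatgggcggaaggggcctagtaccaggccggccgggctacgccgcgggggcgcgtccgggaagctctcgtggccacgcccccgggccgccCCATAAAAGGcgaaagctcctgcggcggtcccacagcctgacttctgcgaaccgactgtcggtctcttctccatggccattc
The box began 32 bases before the start site. It was found in Egr1 and Zfp36 among the 11 windows of the genes named as lower and in 0 of the 14 of those named as higher, against 1.77% of all symbols. The letters TGANTCA, which can hold an AP-1 site, were in 6 of the 14 windows of the genes named as higher and in 0 of the 11 named as lower, against 8.04% of all symbols. There was no window for Cxcl3, Ccl2, Fos, Jun, Atf3 and Txnip.

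Cxcl3 (ENSRNOG00000028043) was spread widely among the members, and its values describe how they were chosen. In control members Cxcl3 supplied a median of 0.51% of UMIs, with the middle 50% of cells between 0.26% and 0.88% and the highest cell at 3.51%. In 7 d members the median was 0.27%, with the middle 50% between 0.17% and 0.50% and the highest at 2.49%. Summed over cells, Cxcl3 stood at 6529 CPM (counts per 1000000 UMIs) in control members and 100 CPM in the other control fibroblasts, and at 3701 and 47.9 CPM in those of 7 d. The threshold cut through a continuous range at 7 d and through the left flank of a broad peak in the control. Just inside it, at 0.10 to 0.11%, lay 22 control and 24 7 d cells, and just outside, at 0.09 to 0.10%, lay 24 and 22. A single Cxcl3 UMI was enough for 34 of 1065 control members and 26 of 491 7 d members, since 63 and 44 of the members had fewer than 1000 UMIs. Members were deeper than other fibroblasts in the control (median 13213 against 11051 UMIs) and at 7 d (10129 against 8661).

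Members made up the largest share of fibroblasts in non-irradiated skin. They were 1065 of 3103 fibroblasts in the control, or 34.3% (95% Clopper-Pearson interval 32.7 to 36.0%). At 7 d they were 491 of 6117, or 8.03% (7.36 to 8.74%). At 14 d they were 8 of 71, or 11.3% (4.99 to 21.0%), at 28 d 7 of 530, or 1.32% (0.533 to 2.70%), and at 60 d 2 of 557, or 0.359% (0.0435 to 1.29%). These intervals cover counting error only. With 1 library per time, an effect of irradiation cannot be told apart from a difference between skin samples, and no test was made. When each cell was first thinned to 2000 UMIs and shallower cells were left out, the share was 37.8% in the control and 9.13% at 7 d.

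Free RNA released by broken cells can place Cxcl3 UMIs in any barcode, so the same threshold was applied to other kinds of barcode. Whether their Cxcl3 was free RNA or their own was not tested. Among keratinocytes, with median depths of 10600 to 24175 UMIs against 4320 to 12005 in fibroblasts, the threshold was reached by 1.09% of control barcodes and by 0.672%, 3.89%, 1.05% and 0.311% from 7 d to 60 d. The fibroblast share therefore stood well above the keratinocyte share in the control and at 7 d. At 28 d and 60 d the 2 shares overlapped within their intervals. By share alone, the 9 members of these libraries cannot be told apart from that background. All of these members held more than 2 Cxcl3 UMIs, with medians of 20 at 28 d and 40 at 60 d. Of the other fibroblasts of these libraries, 3.06% and 1.44% held any Cxcl3 UMI. The source of the Cxcl3 in these members was not tested. Endothelial-like barcodes reached the threshold in 4.75% of the control and 1.09% of the 7 d barcodes, and in 0 of 228 at 60 d, which allows a share of up to 1.32% when the limit is set at 3 counts. Ptprc-positive barcodes, which hold leukocytes, reached it in 23.7%, 13.2%, 10.0%, 10.4% and 1.70% from the control to 60 d. Their Cxcl3 stood at 1920 CPM in the control and 618 CPM at 7 d, against 2510 and 379 CPM in all fibroblasts. At 7 d, 28 d and 60 d their share was above that of fibroblasts, so reaching the threshold was not particular to fibroblasts. The share thus was lowest at 60 d in each of the 4 kinds of barcode.

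**Figure D1:**
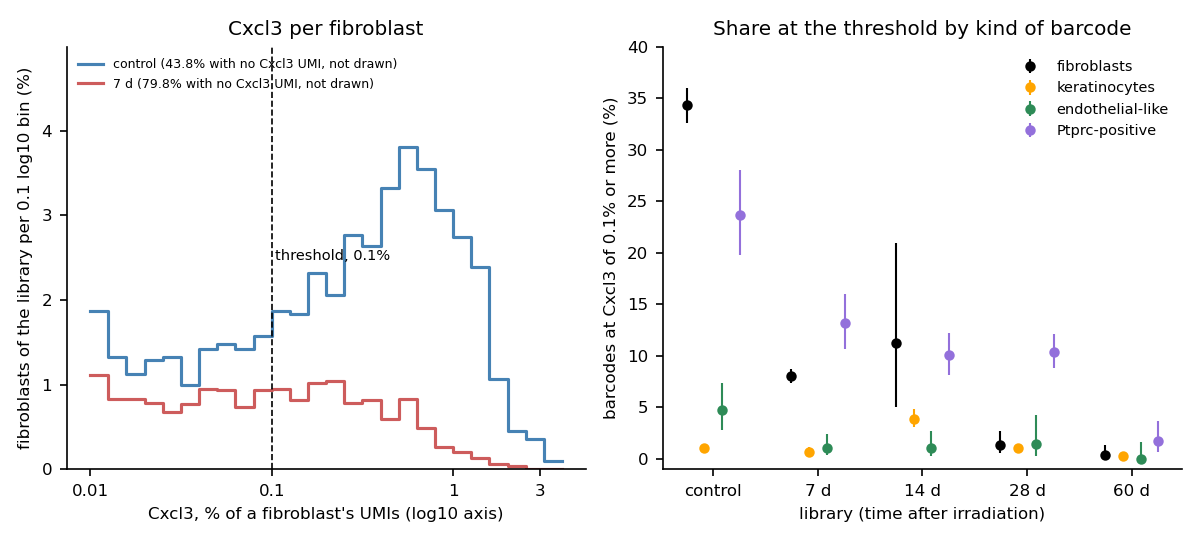
Left, distribution of Cxcl3 as a percentage of a fibroblast's UMIs in the control and 7 d libraries on a log10 axis, with the 0.1% threshold dashed; cells under 0.01% are not drawn. Right, share of barcodes at or above the threshold by library and kind of barcode, with 95% Clopper-Pearson intervals; fibroblasts stand at 34.3% in the control and 8.03% at 7 d, and at 28 d and 60 d they lie beside the keratinocytes.

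The members carried fibroblast markers beyond the genes of the rule. The 7 fibroblast markers that were measured summed to 27271 CPM in control members and 22363 CPM in other control fibroblasts, and to 22566 and 19385 CPM at 7 d. Gsn, which encodes the actin-severing protein gelsolin, supplied most of that gap, at 17552 against 13135 CPM in the control and 14762 against 11729 CPM at 7 d. Pdgfra, the receptor that marks dermal fibroblasts, was present in members at 67.6 CPM (control) and 60.8 CPM (7 d) and in other fibroblasts at 90.5 and 70.9 CPM. Lum, a small proteoglycan of collagen fibrils, was at 968 and 545 CPM in members and at 1141 and 727 CPM in other fibroblasts.

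Markers of other cell types were summed in the same way. The 10 keratinocyte markers summed to 1638 CPM in control members and 2552 CPM in other control fibroblasts, and to 1188 and 1695 CPM at 7 d, with 0 of 10 higher in members in the control and 1 of 10 at 7 d. The 9 macrophage markers were at 60.8 and 60.7 CPM in the control and at 105 and 103 CPM at 7 d. The T cell genes Cd3e, Cd3d and Cd3g were at 0 in members of both libraries. The 5 neutrophil markers summed to 9.60 CPM in control members and 20.1 CPM in other control fibroblasts, but to 69.3 and 25.7 CPM at 7 d, where S100a9 alone was at 52.6 CPM in members, and Cxcr2 was at 0 in members of both libraries. The 4 mast cell markers summed to 23.7 CPM in control members and 7.67 CPM in other control fibroblasts, with 4 of 4 higher in members, and to 2.40 and 12.5 CPM at 7 d. The 4 adipocyte markers that were measured summed to 323 against 248 CPM in the control, with 4 of 4 higher in members, and to 373 against 292 CPM at 7 d, with 3 of 4 higher. Mural markers, higher in 7 d members, are given with the contractile genes. The part of RNA from these cells in the results was not tested.

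Members were then compared with the other fibroblasts of the same library across all genes. Only the control and 7 d libraries held 20 or more members, so the test rested on 4 sums of counts, members and others in each of 2 libraries. Both sums of a library share skin sample, preparation and sequencing, and the split was made on Cxcl3 in these same cells, so the p-values measure only how alike the split was in 2 libraries. The fit was an edgeR quasi-likelihood test with library as a block, 1 residual degree of freedom and Benjamini-Hochberg adjustment. It tested 12260 genes, leaving out 13 genes that the rule used. The spread of each gene was moderated towards that of all genes, with a median of 8.47 prior degrees of freedom, so p-values and SEs rest largely on that prior. Each SE was derived from the log2 fold change and the F statistic. In the fit 759 genes rose in members, 6.19% of those tested, and 444 fell, 3.62%. The changes were mostly modest, since 42 of the genes that rose and 119 of those that fell did so by 2-fold or more. Of all called genes, 6 had opposite signs in the 2 libraries. The median log2 ratio of CPM over all genes tested was -0.19 in the control and -0.06 at 7 d, and the fitted log2 fold changes, which are scaled by TMM, had a median of -0.02. Without the library block 0 genes were called, with 528 at an unadjusted p under 0.05, against 2938 with the block. DESeq2 gave an adjusted p for 6076 genes. It called 497 higher and 111 lower, or 81.7% of its calls higher against 63.1%. All 608 were among the edgeR calls in the same direction.

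Chemokines for neutrophils were higher in members. Cxcl1 (ENSRNOG00000002802), a ligand of Cxcr2, stood at 21364 CPM in control members against 8972 CPM in other control fibroblasts, and at 14806 against 6919 CPM at 7 d. Members were higher in both libraries, with a fitted log2 fold change of 1.29 ± 0.06 (SE; adjusted p 9.2e-06 by edgeR). Cxcl6 was at 67.3 against 11.4 CPM in the control and at 4.80 against 1.45 CPM at 7 d, and rose as well (log2 2.53 ± 0.18, edgeR adjusted p 1.0e-04). Cxcl2 was at 85.6 against 33.7 CPM in the control but at 32.0 against 33.2 CPM at 7 d, and did not pass (log2 0.87 ± 0.26, edgeR adjusted p 0.066). Of the 4 neutrophil chemokines tested, 2 thus rose and 0 fell. Cxcl1, Cxcl2 and Cxcl3 are near-identical in parts of their sequence, so that reads could be split between them in counting, and their values carry that uncertainty.

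Of the 14 chemokines tested that draw monocytes and lymphocytes, 6 rose and 0 fell, with a median log2 fold change of 0.44. Ccl2, the chief monocyte attractant, took 25133 CPM of control members against 13034 CPM of other control fibroblasts, and 12303 against 5961 CPM at 7 d (log2 1.11 ± 0.05, edgeR adjusted p 2.7e-06). Ccl7, which shares the receptor Ccr2 with Ccl2, stood at 887 against 563 CPM in the control and at 997 against 482 CPM at 7 d (log2 0.97 ± 0.07). The ligands of Cxcr3, which draw activated T cells, were higher in members of both libraries. Cxcl9 was at 479 against 140 CPM in the control and at 764 against 337 CPM at 7 d, the highest fold change of the genes named by rule (log2 1.59 ± 0.13). Cxcl10 was at 526 against 290 CPM in the control and at 1430 against 834 CPM at 7 d (log2 0.93 ± 0.06). Ccl20 and Cxcl11 completed the genes that rose, with log2 fold changes of 0.50 and 0.65. Cxcl14, a chemokine of resting skin, was at 1266 against 1279 CPM in the control and 1856 against 1723 CPM at 7 d and did not pass (edgeR adjusted p 0.094). Cxcl12, which holds leukocytes in tissue, had 14.9 against 15.2 CPM in the control and 27.2 against 21.8 CPM at 7 d.

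Cytokines followed the chemokines in part. Il6, the main inducer of the acute phase response, was at 1292 CPM in control members against 613 CPM in other control fibroblasts, and at 667 against 424 CPM at 7 d (log2 0.98 ± 0.10, edgeR adjusted p 6.5e-04). Csf1, the growth factor of macrophages, was at 214 against 152 CPM in the control and at 275 against 203 CPM at 7 d (log2 0.58 ± 0.07). Csf2 also rose (log2 2.20 ± 0.45) at no more than 3.72 CPM in any sum. These were the 3 of 14 interleukins and colony stimulating factors that rose, and 0 fell. With all 5 libraries 0 of the 5 that could be tested were called, with a median log2 fold change of 0.10. Csf3, the growth factor of neutrophils, was at 26.9 against 0.94 CPM in the control but at 1.40 against 5.14 CPM at 7 d, so that its direction differed between the libraries and it did not pass (edgeR adjusted p 0.18). Il33, the ligand of Il1rl1, was at 101 against 106 CPM in the control and at 93.5 against 108 CPM at 7 d.

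Receptors for these signals were among the genes that rose, with 8 of 26 on the list of cytokine receptors and the interleukin 1 pathway and 0 that fell. Il1rl1 (ENSRNOG00000014835) was at 271 CPM in control members against 148 CPM in other control fibroblasts, and at 75.3 against 36.8 CPM at 7 d (log2 1.06 ± 0.07). As a marker chosen from earlier results on these cells, it is not independent evidence. Il1r1, the signalling receptor of interleukin 1, was at 43.1 against 27.6 CPM in the control and at 31.2 against 17.1 CPM at 7 d (log2 0.86 ± 0.10). Osmr, the receptor of oncostatin M, was at 53.2 against 32.9 CPM and at 56.6 against 33.3 CPM (log2 0.85 ± 0.09). Il6r, Il4r, Irak3, Il17ra and Tnfrsf1b were the other 5 that rose, with log2 fold changes of 0.40 to 0.71. Il1r2, the decoy receptor of interleukin 1, was at 270 against 320 CPM in the control and at 570 against 461 CPM at 7 d and did not pass (edgeR adjusted p 0.39).

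Of 28 genes for NF-kB subunits, their inhibitors and common targets, 14 rose and 2 fell. Nfkb1, a subunit, was at 561 CPM in control members against 328 CPM in other control fibroblasts, and at 252 against 152 CPM at 7 d (log2 0.87 ± 0.07). Rela, Relb and Nfkb2, which encode other subunits, rose by log2 fold changes of 0.27, 0.67 and 0.66. Among the targets, Sod2, the mitochondrial superoxide dismutase, was at 2858 against 1813 CPM in the control and at 2306 against 1482 CPM at 7 d (log2 0.76 ± 0.06), and the adhesion molecule Vcam1 was at 236 against 155 CPM and at 147 against 89.8 CPM (log2 0.77 ± 0.07). The early feedback inhibitor Nfkbia did not pass, at 957 against 970 CPM in the control and 1183 against 1318 CPM at 7 d (edgeR adjusted p 0.86). The 2 that fell were Nfkbiz (log2 -0.52 ± 0.08) and Irf1 (log2 -0.51 ± 0.10).

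Genes for the hyaluronan matrix, which swells and loosens inflamed tissue, were higher in members, with 8 of 13 that rose and 2 that fell. Ptx3 (ENSRNOG00000012280) was at 1512 CPM in control members against 570 CPM in other control fibroblasts, and at 557 against 278 CPM at 7 d (log2 1.32 ± 0.10, edgeR adjusted p 1.2e-04), with the same reservation as for Il1rl1. Tnfaip6, which transfers protein chains onto hyaluronan and binds Ptx3, was at 5802 against 3266 CPM in the control and at 3364 against 2031 CPM at 7 d (log2 0.89 ± 0.06). The synthases Has1 and Has2 rose by log2 fold changes of 0.44 and 0.63, and Ugdh, which makes their substrate, by 0.71. Vcan, a large proteoglycan that binds hyaluronan, and Cd44, its cell surface receptor, rose by 0.61 and 0.58. Cemip2, a hyaluronan-degrading protein of the cell surface, was at 135 against 60.1 CPM in the control and at 50.6 against 22.0 CPM at 7 d (log2 1.30 ± 0.08). The genes that fell, Hyal2 and Hapln3, were at or under 13.5 CPM in every sum. For prostaglandins 2 of 11 genes rose, the cyclooxygenase Ptgs2 (log2 0.68 ± 0.06) and the prostaglandin E synthase Ptges (log2 0.78 ± 0.07). Pla2g2a, a secreted phospholipase, was at 318 against 364 CPM in the control and at 802 against 1093 CPM at 7 d and did not pass (log2 -0.21 ± 0.08, edgeR adjusted p 0.16).

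Proteases and their inhibitors formed a further group, with 11 of 22 that rose, 0 that fell and a median log2 fold change of 0.52. Timp1, an inhibitor of metalloproteinases, was at 4598 CPM in control members against 2737 CPM in other control fibroblasts, and at 2676 against 1639 CPM at 7 d (log2 0.84 ± 0.06). Adamts4, which cleaves versican and aggrecan, was at 429 against 206 CPM in the control and at 338 against 177 CPM at 7 d (log2 1.11 ± 0.07). Plau, the urokinase that activates plasminogen, was at 355 against 187 CPM and at 265 against 157 CPM (log2 0.96 ± 0.08). Tfpi2, which inhibits plasmin and trypsin and was named by rule, was at 1397 against 600 CPM in the control and at 753 against 310 CPM at 7 d (log2 1.36 ± 0.06, edgeR adjusted p 2.7e-06). Mmp2, the gelatinase of resting fibroblasts, was at 1046 against 1098 CPM and at 2586 against 2632 CPM and did not pass.

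**Figure D2:**
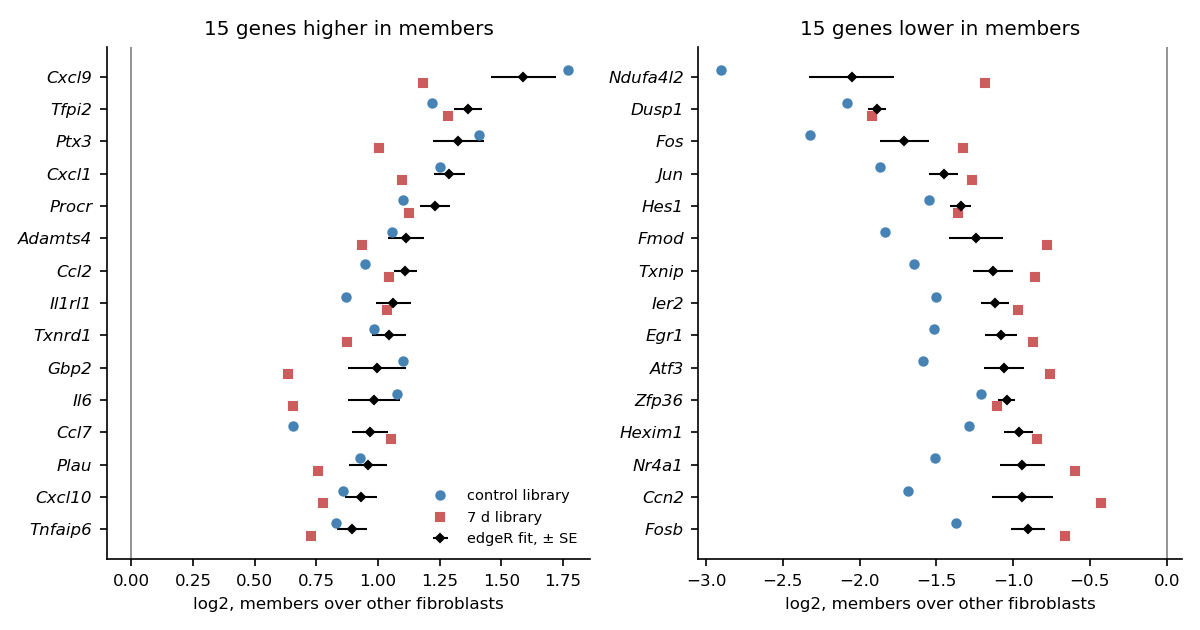
Log2 difference between members and other fibroblasts for the 15 highest and 15 lowest genes named by rule, with the edgeR fit and its SE as diamonds and the CPM ratio of each library as circles (control) and squares (7 d). The rule took only genes with the same sign in both libraries, and most of those that fell lie farther from 0 in the control.

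Other genes named by rule as higher were Procr, the endothelial protein C receptor gene that some fibroblasts also express, at 631 against 294 CPM in the control and 400 against 183 CPM at 7 d (log2 1.23 ± 0.06). Txnrd1, a thioredoxin reductase under the oxidative stress factor NRF2, was at 548 against 277 CPM and at 314 against 172 CPM (log2 1.04 ± 0.07). It stood on a list of 16 genes for that response and for metal binding, of which 8 rose and 0 fell, Hmox1 and Slc7a11 among them with log2 fold changes of 0.66 and 0.84. The metallothionein Mt1 did not pass, at 1430 against 1727 CPM in the control and 2023 against 1913 CPM at 7 d. Of 21 genes of hypoxia and glycolysis 7 rose and 0 fell, with Hk2 (log2 0.55 ± 0.06) and Ldha (log2 0.49 ± 0.06) as the most abundant of them. When all 5 libraries were fitted, 1 of 20 rose and 0 fell, with a median of 0.045.

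Interferon response genes were higher in part, with 13 of 32 that rose and 1, Irf1, that fell. Gbp2, a guanylate-binding protein induced by interferon gamma, was at 177 CPM in control members against 82.4 CPM in other control fibroblasts, and at 126 against 81.1 CPM at 7 d (log2 0.996 ± 0.12, edgeR adjusted p 0.0011). Tap1, the peptide transporter, was at 109 against 60.0 CPM and at 114 against 77.6 CPM (log2 0.83 ± 0.10), and Ifit3 was at 46.4 against 23.2 CPM and at 133 against 69.4 CPM (log2 1.08 ± 0.08). Ifi27l2b was at 75.7 against 81.6 CPM in the control and at 1580 against 1418 CPM at 7 d and did not pass (edgeR adjusted p 0.20), although it was high in both kinds of fibroblast at 7 d. Stromal complement genes rose in 5 of 15 cases, led by C4b (log2 0.51 ± 0.12), and 0 fell. The C4b gene has a near-identical copy, so its value is uncertain. With all 5 libraries the medians of the complement and NRF2 lists, 0.30 and 0.26, turned to -0.078 and -0.0026.

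Structural matrix genes were mixed. Of 31 collagens and other matrix genes 10 rose and 3 fell, with a median log2 fold change of 0.16 that turned to -0.21 when the 3 libraries with few members were added. Col4a1 of the basement membrane was at 1580 CPM in control members against 1011 CPM in other control fibroblasts, and at 781 against 605 CPM at 7 d (log2 0.62 ± 0.08). Fibronectin, Fn1, was at 1120 against 870 CPM and at 1521 against 1123 CPM (log2 0.52 ± 0.05). The genes that fell were Fmod, a proteoglycan of collagen fibrils, at 35.9 against 128 CPM and 48.0 against 82.8 CPM (log2 -1.24 ± 0.17), elastin, Eln (log2 -0.50 ± 0.07), and Sparc (log2 -0.21 ± 0.05). Among 28 genes used to tell fibroblast subtypes apart, 6 rose and 7 fell, with a median of -0.02 that took the other sign under 4 of the alternatives. When all 5 libraries were fitted, 0 of 25 rose and 7 fell, with a median of -0.36. The values that follow are from the 2-library fit. Apod, a lipocalin, rose (log2 0.81 ± 0.07), as did Myoc, at 982 against 769 CPM in the control and 976 against 680 CPM at 7 d (log2 0.55 ± 0.06). Sfrp2, an inhibitor of Wnt signals, fell, at 441 against 805 CPM in the control and 480 against 802 CPM at 7 d (log2 -0.69 ± 0.06, edgeR adjusted p 1.5e-04). Tnmd, which marks tendon cells, and Apcdd1, a Wnt inhibitor of the upper dermis, fell by log2 fold changes of -0.95 and -0.91. Of 19 universal and adventitial fibroblast genes 5 rose and 1 fell. Pi16, which marks adventitial fibroblasts, was at 225 against 220 CPM in the control and 225 against 158 CPM at 7 d (log2 0.38 ± 0.09).

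Many immediate early genes fell, which are transcribed within minutes of a stimulus. Of 30 on the list 18 fell and 2 rose, with a median log2 fold change of -0.61. Dusp1, a phosphatase that ends MAP kinase signals, was at 172 CPM in control members against 729 CPM in other control fibroblasts, and at 472 against 1782 CPM at 7 d (log2 -1.89 ± 0.06, edgeR adjusted p 3.5e-07). Fos, an AP-1 subunit, was at 477 against 2391 CPM in the control and at 2224 against 5572 CPM at 7 d (log2 -1.71 ± 0.16), and its partner Jun was at 574 against 2090 CPM and at 2313 against 5583 CPM (log2 -1.45 ± 0.10). Zfp36, which destroys the messages of several chemokines and cytokines, was at 311 against 718 CPM in the control and at 816 against 1753 CPM at 7 d (log2 -1.04 ± 0.06). Nr4a1, the orphan nuclear receptor Nur77, was at 79.2 against 226 CPM in the control and at 192 against 291 CPM at 7 d (log2 -0.94 ± 0.15, edgeR adjusted p 0.0046). Egr1, Ier2, Atf3 and Fosb fell by -1.08, -1.12, -1.06 and -0.90. The AP-1 subunit Fosl1 and the factor Maff were the genes that rose, by 0.55 and 0.42.

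Of 11 heat shock genes 6 fell and 0 rose, with a median log2 fold change of -0.28, whereas with all 5 libraries 0 of 11 were called, with a median of -0.41. Hspa1b was at 1061 CPM in control members against 2033 CPM in other control fibroblasts, and at 3164 against 5126 CPM at 7 d (log2 -0.70 ± 0.06), and Hspb1 fell by a log2 fold change of -0.81. Of 27 p53 targets 7 fell and 2 rose. Cdkn1a, the inhibitor of cell division, was at 129 against 206 CPM in the control and at 858 against 1116 CPM at 7 d (log2 -0.41 ± 0.07, edgeR adjusted p 0.0051), and Mdm2 was at 78.6 against 116 CPM and at 540 against 750 CPM (log2 -0.41 ± 0.06). The members also differed from the other fibroblasts in depth, as given above, and in mitochondrial UMIs, with a median of 2.10% against 2.53% in the control and 2.37% against 2.85% at 7 d. The part of depth and cell quality in these results was not tested. Further genes named by rule as lower were Ndufa4l2, Hes1, Txnip, Hexim1 and Ccn2, with log2 fold changes of -2.05, -1.34, -1.13, -0.96 and -0.94.

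Growth factors, contractile genes and genes of dividing cells were also compared. Of 22 ligands of the EGF receptor, FGFs and angiogenic factors 8 rose, with the EGF receptor ligand Areg at 73.5 against 52.98 CPM in the control and 43.6 against 29.1 CPM at 7 d (log2 0.64 ± 0.08), and 2 fell, Hbegf and Esm1. Of 21 TGF-beta and contractile genes 3 rose and 3 fell. Of 19 proliferation genes 0 rose and 1, Mki67, fell, at 5.73 against 15.9 CPM in the control and 2.20 against 3.43 CPM at 7 d. The median log2 fold change of this list, -0.63, was nevertheless the lowest of the 21 lists. The 2 libraries differed in direction, with a median log2 CPM ratio of -1.46 in the control and 0.21 at 7 d. With members set at Cxcl3 of 0.2% or more, or chosen on thinned cells, 8 of 19 fell.

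**Figure D3:**
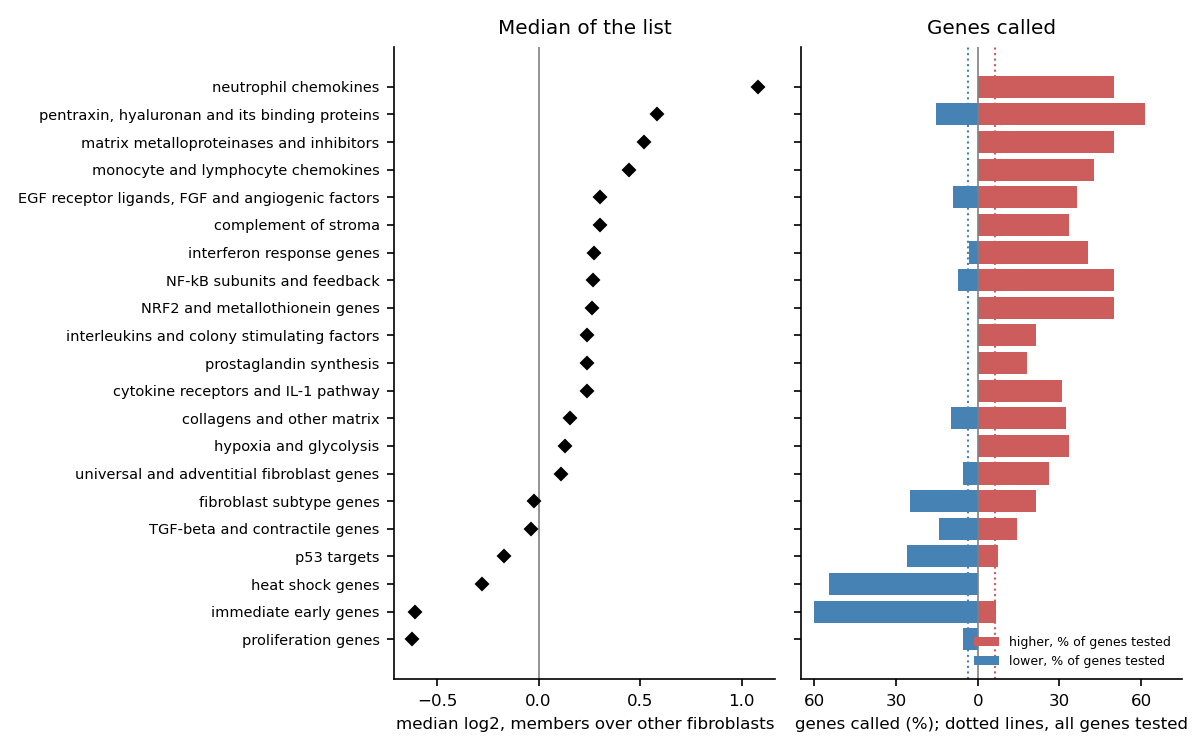
Median log2 fold change of each of 21 gene lists in members against other fibroblasts (left) and percentage of the tested genes of each list called higher or lower (right), with dotted lines at 6.19% and 3.62% for all genes tested. Neutrophil chemokines have the highest median, 1.08, and immediate early genes hold the largest share of genes that fell, 18 of 30.

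Cxcl1 and Ccl2 were graded with Cxcl3 across the fibroblasts. Control fibroblasts with no Cxcl3 UMI held Cxcl1 at 8125 CPM, those between 0 and 0.1% at 10128 CPM, and the 4 tiers of members, up to 0.2%, 0.5%, 1% and beyond, at 14244, 16490, 24614 and 29550 CPM. At 7 d the same 6 tiers held Cxcl1 at 6422, 9150, 10668, 14424, 19140 and 30193 CPM, so that the order was the same in both libraries and the top tiers stood close together. Ccl2 went from 11620 CPM without Cxcl3 to 31315 CPM in the top tier in the control and from 5536 to 18318 CPM at 7 d. Il6 went from 570 to 1796 CPM and from 414 to 1324 CPM. Timp1 was graded in the same way, from 2456 to 6101 CPM and from 1596 to 3567 CPM. Ptx3 was graded less evenly, from 448 to 1987 CPM in the control and from 269 to 827 CPM at 0.5 to 1% at 7 d, with 686 CPM in the 26 cells of the top tier. Fos ran the other way, from 2669 to 163 CPM in the control and from 5863 to 1027 CPM at 7 d. Cxcl2, Cxcl6 and Ccl7 were not graded throughout, nor was Il1rl1 at 7 d. Il1rl1 went from 129 to 388 CPM in the control. At 7 d it was at 34.7, 46.2, 67.5, 64.5, 123 and 26.2 CPM over the 6 tiers, the last from 6 UMIs. At 7 d Cxcl2 was at 32.9, 34.2, 74.6, 6.69, 7.10 and 56.8 CPM over the 6 tiers, and Cxcl6 had 0 UMIs in the top pair of tiers. In the 4 tiers of control members Ccl7 was at 958, 809, 896 and 944 CPM. Nfkbia was nearly flat in the control, between 931 and 982 CPM over the 6 tiers, but went from 1326 to 979 CPM at 7 d. Col1a1, which the rule used, went from 44644 to 20620 CPM in the control while Col3a1 stayed between 33259 and 37274 CPM. At 7 d Col3a1 went from 29920 to 18344 CPM. The tiers hold 188 to 1359 cells in the control and 26 to 4880 at 7 d, and they are parts of 1 library, so they are given without a test.

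**Figure D4:**
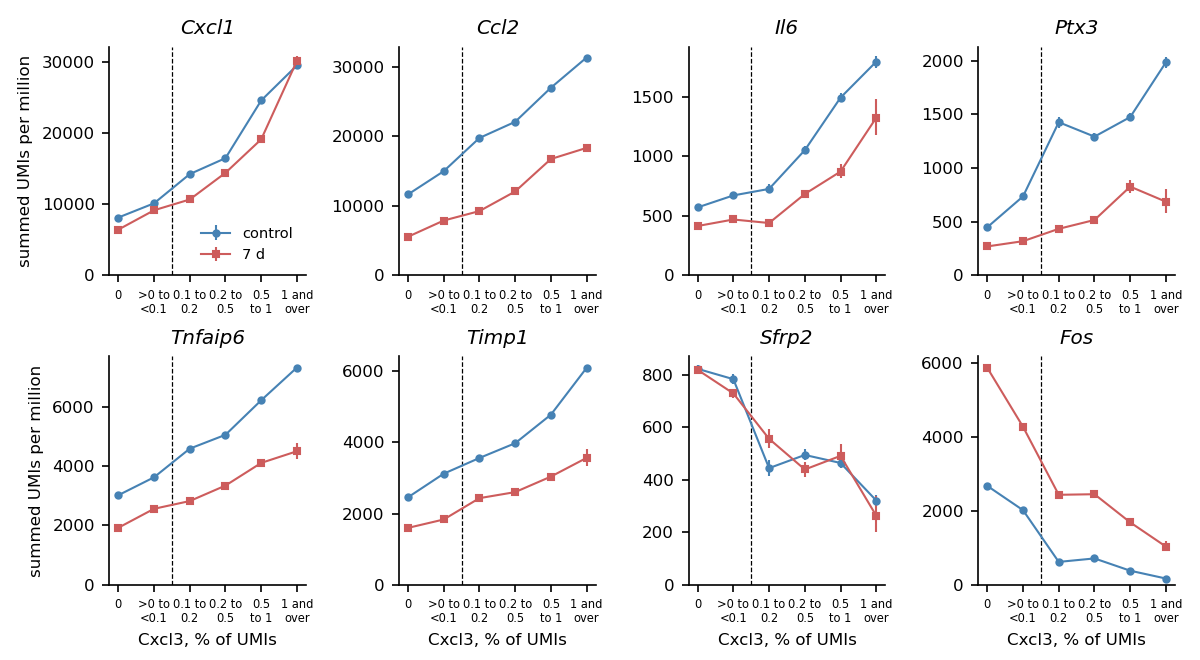
Summed UMIs in CPM of 8 genes in fibroblasts binned by Cxcl3 as a percentage of UMIs, for the control and 7 d libraries, with 95% Poisson intervals; tiers to the right of the dashed line are members. Cxcl1, Ccl2, Il6, Tnfaip6 and Timp1 are highest in the top tier of both libraries, while Sfrp2 and Fos are lowest there.

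The share of cells with a UMI was also counted gene by gene. After thinning to 2000 UMIs, with 88 of the control and 63 of the 7 d members left out as too shallow, Il6 was found in 69.6% of control members (unthinned 85.6%) and 40.3% of other control fibroblasts (unthinned 59.5%). At 7 d it was found in 51.9% (unthinned 77.2%) and 36.7% (unthinned 57.6%). Keratinocytes, at median depths of 10600 and 12056 UMIs, held Il6 in 3.54% and 4.92%. Ptx3 was found in 56.5% of control members and 29.1% of other control fibroblasts, and in 31.3% and 19.2% at 7 d (unthinned 67.7%, 43.2%, 45.0% and 29.0%), against 2.52% and 1.72% of keratinocytes. Il1rl1 was rarer, in 24.97% and 12.7% in the control and in 7.24% and 4.44% at 7 d (unthinned 43.5%, 24.6%, 19.1% and 9.90%), against 0.948% and 0.356% of keratinocytes. It was thus not detected in most thinned members in both libraries, although it names the population. Cxcl1 and Ccl2 were found in 99.9% and 99.7% of control members, but also in 46.0% and 48.6% of control keratinocytes, so that their presence alone says little about a cell.

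The members of irradiated skin were set beside those of the control to ask what differed within the population at 7 d. There is 1 library on each side, so ratios of CPM are given with exact intervals for counting error and no test. Of 9062 genes with at least 50 UMIs over both, 516 were at least 2-fold higher at 7 d, or 5.69%, and 241 at least 2-fold lower, or 2.66%, with a median log2 ratio of 0.11. Scaling by the median ratio, a shift of 0.10 on the log2 scale, gave 399 and 312, or 56.1% higher in place of 68.2%. The other fibroblasts of the 2 libraries are given beside each ratio.

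Interferon response genes stood out by count, with 20 of 31 at least 2-fold higher, 0 lower and a median log2 ratio of 1.23 (1.23 in the other fibroblasts). Isg15, a ubiquitin-like protein, was at 168 CPM at 7 d and 20.4 CPM in the control, a ratio of 8.23 (7.17 to 9.47), against 11.3 in the other fibroblasts. Ifi27l2b was at 1580 and 75.7 CPM, a ratio of 20.9 (19.5 to 22.3), against 17.4. The class I histocompatibility genes RT1-T24-3, RT1-T24-4 and RT1-S3 were 62.9-fold, 15.7-fold and 6.50-fold higher, against 46.4, 13.2 and 6.19 in the other fibroblasts. RT1 genes have near-identical copies and vary between animals, so that these values are uncertain. Abcb1a, a drug efflux pump, was at 158 and 2.60 CPM, a ratio of 60.8 (43.3 to 87.9), against 40.4.

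Of 23 p53 targets 8 were at least 2-fold higher and 0 lower, with a median log2 ratio of 0.66 (0.77 in the other fibroblasts). Cdkn1a was at 858 and 129 CPM, a ratio of 6.65 (6.29 to 7.04), and Mdm2, which degrades p53, at 540 and 78.6 CPM, a ratio of 6.87 (6.39 to 7.38). In the other fibroblasts these ratios were 5.43 and 6.45. A UMI of Cdkn1a was found in 72.9% of 7 d members and 18.5% of control members after thinning to 2000 UMIs (unthinned 89.6% and 56.0%), while keratinocytes held it in 74.7% and 57.3%. Of 29 immediate early genes 13 were at least 2-fold higher and 0 lower. Fos had a ratio of 4.66 (4.52 to 4.80) in members and 2.33 in the other fibroblasts, so that members lay nearer to the other fibroblasts at 7 d than in the control. Among 11 complement genes 5 were at least 2-fold higher and 1, Cfd, at least 2-fold lower, with C4b at a ratio of 4.01 (3.68 to 4.38) against 2.43 in the other fibroblasts.

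Contractile genes were higher at 7 d in members, with 5 of 18 on their list at least 2-fold higher. Tagln was at 257 and 29.5 CPM, a ratio of 8.72 (7.78 to 9.78), and Acta2, smooth muscle actin, at 106 and 12.8 CPM, a ratio of 8.31 (6.98 to 9.92). In the other fibroblasts these ratios were 1.98 and 2.65. Most members had no UMI of either gene. Without thinning, Tagln was found in 20.2% of 7 d members and 7.79% of control members, and Acta2 in 15.7% and 5.45%. The 7 mural cell markers, which include both genes, summed to 479 CPM in 7 d members and 291 CPM in other 7 d fibroblasts, with 7 of 7 higher in members, and to 69.9 and 123 CPM in the control. Myh11 of smooth muscle was at 69.5 CPM and Des at 38.4 CPM in 7 d members, while Rgs5 and Notch3 of pericytes were at 2.002 and 1.20 CPM. The part of smooth muscle RNA in the levels of Tagln and Acta2 was not tested.

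Several inflammatory genes that set the members apart were lower at 7 d than in the control, while the lists they belong to differed. Of 3 neutrophil chemokines 0 had a ratio above 1, with a median log2 ratio of -1.42 (-0.37 in the other fibroblasts). Of 8 pentraxin and hyaluronan genes 2 did, with a median of -0.79 (-0.69). Of 7 interleukins and colony stimulating factors 2 did, with a median of -0.41 (0.03). Of 14 chemokines for monocytes and lymphocytes 9 had a ratio above 1, with a median log2 ratio of 0.39 (0.07 in the other fibroblasts). So had 14 of 27 NF-kB genes, with a median of 0.07 (0.02), and 14 of 25 cytokine receptor genes, with 0.09 (0.02). Over all genes 5420 of 9062 had a ratio above 1, and the counts of these last lists lay near that share. Ptx3 was at 557 and 1512 CPM, a ratio of 0.37 (0.35 to 0.38), and Il1rl1 at 75.3 and 271 CPM, a ratio of 0.28 (0.25 to 0.31), against 0.49 and 0.25 in the other fibroblasts. Ccl2 had a ratio of 0.49 (0.485 to 0.494) and Cxcl1 of 0.69 (0.687 to 0.699), against 0.46 and 0.77. Members at 7 d also held less Cxcl3, with a median of 0.27% against 0.51%, and both genes were graded with it. By tier of members, Cxcl1 was at 10668, 14424, 19140 and 30193 CPM at 7 d against 14244, 16490, 24614 and 29550 CPM. Ccl2 was at 9228, 12049, 16718 and 18318 CPM against 19744, 22065, 26966 and 31315 CPM. The part of the Cxcl3 level in the ratios of this paragraph was not tested. Cxcl6 was at 4.80 and 67.3 CPM, a ratio of 0.071 (0.045 to 0.107), against 0.127 in the other fibroblasts. Mmp3, Cemip2 and Ptges lay at 0.35, 0.38 and 0.39, against 0.589, 0.366 and 0.380. Higher at 7 d were the interferon-inducible Cxcl10, at 1430 and 526 CPM with a ratio of 2.72 (2.63 to 2.81) against 2.88 in the other fibroblasts, and Cxcl9, with a ratio of 1.59 (1.53 to 1.66) against 2.40. Ccl7 had a ratio of 1.12 (1.09 to 1.16) against 0.855. Has1 was at 1328 and 947 CPM, a ratio of 1.40 (1.36 to 1.45) against 1.24. Ly6d, a gene of keratinocytes, had the lowest ratio of the genes named by rule, 0.072 in members and 0.073 in the other fibroblasts.

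**Figure D5:**
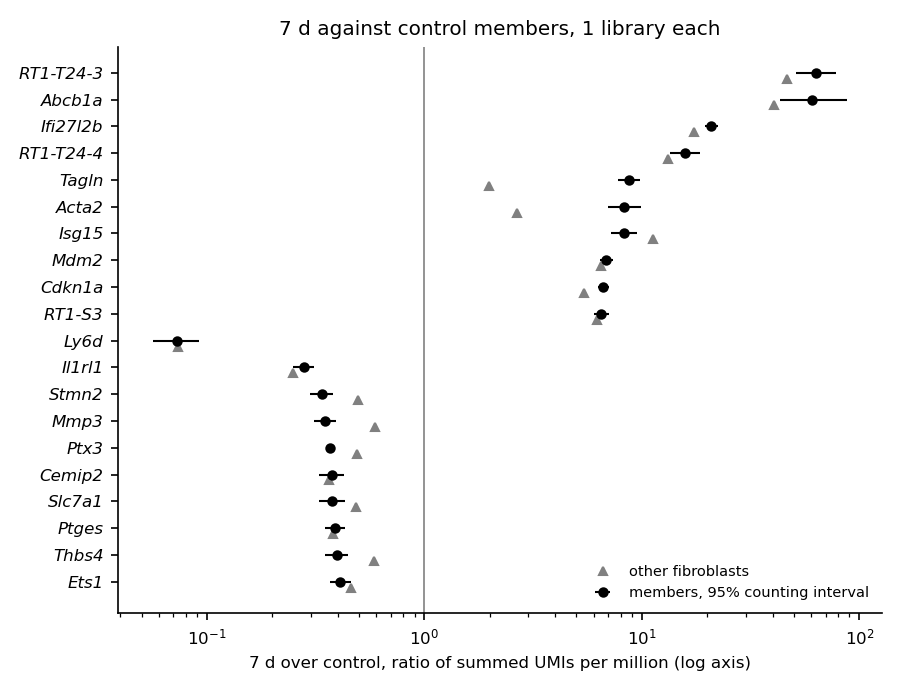
Ratio of summed UMIs in CPM at 7 d over control for the 10 highest and 10 lowest genes named by rule, on a log axis, in members (circles, with 95% counting intervals) and other fibroblasts (triangles). The members and the other fibroblasts lie close together for most genes, while Tagln and Acta2 are 8.72-fold and 8.31-fold higher in members against 1.98-fold and 2.65-fold in other fibroblasts.

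The 14 d, 28 d and 60 d libraries held 17 members. The 8 members at 14 d held Cxcl1 at 7676 CPM (95% Poisson interval 7089 to 8298) against 4598 CPM in the other fibroblasts, Ptx3 at 679 CPM (513 to 882) against 177 CPM, and Il6 at 922 CPM (726 to 1154) against 1614 CPM. Their Fos was at 558 CPM (408 to 744) against 3935 CPM. The 7 members at 28 d held Cxcl1 at 18297 CPM and Ccl2 at 14429 CPM, against 4515 and 2198 CPM in the other fibroblasts. The 2 members at 60 d held them at 15840 and 6024 CPM against 4469 and 1783 CPM, but Col1a1 at 5187 CPM against 37867 CPM. Il1rl1 had 1 UMI at 14 d and 0 at 28 d and 60 d, which by the same limit of 3 counts allows up to 82.3 and 167 CPM. Cxcl1 was higher in members than in other fibroblasts in 5 of 5 libraries, including those at 14 d, 28 d and 60 d with 8, 7 and 2 members. The 28 d and 60 d members cannot be told apart from the keratinocyte background by their share, and reads could be split between Cxcl1 and Cxcl3.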

How the data were processed

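Single-cell RNA libraries of rat skin, 1 for each of 5 groups, were analysed. Per the labels the authors ran Cell Ranger 5.0.0 and STAR against Rnor_6.0, and their deposited matrices hold raw UMI counts per gene and barcode, unnormalised. Seurat 3.1.1 is also named in the submitters' notes. No doublets were removed here, and rows of the same symbol were summed (30017 symbols). Depth ranged from 70073362 to 139566348 UMIs per library. Cell filters and the rule for members are given with the results. The members and gene lists were chosen with earlier results of these data known. Counts were summed per library and kind of cell, scaled to CPM, and tested with edgeR 4.0.16 (R 4.3.3; TMM, minimum count 10, library as block), two-sided, at an adjusted p of 0.05. The fit was also run on simulated counts. These had the same spread setting for every gene and no split on Cxcl3, so they cannot show how reliable the calls are. Gene lists held 442 symbols, of which 425 were found and the rest not analysed here. Genes were named by rule. For members against other fibroblasts these were the 15 highest and 15 lowest log2 fold changes among called genes of the same sign in both libraries with at least 100 CPM. For 7 d against control members they were the 10 highest and 10 lowest ratios among genes with at least 100 CPM and a UMI in at least 10% of members. Mitochondrial, ribosomal, unnamed and rule genes were left out, and other genes come from the lists. Intervals are exact at 95% and cover counting error only. Alternatives were DESeq2 1.42.0 and its size factors, no filter, no block, other thresholds, thinning to 2000 UMIs, and all 5 libraries, the last chosen after seeing the data.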

Additional observations from a re-analysis of the deposited data

How the results depend on the processing

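Counts of changed genes depended more on the fit than their directions did. Against 759 higher and 444 lower of 12260 genes, DESeq2 called 497 and 111 of the 6076 given an adjusted p. The fit with no replicate block called 0 and 0 (528 genes at an unadjusted p under 0.05). The number of lower genes also moved to 818 of 18376 tested with no filter on low counts and to 787 of 12240 at Cxcl3 of 0.2% or more. It moved to 289 of 11420 with F of at least 3 and K under 0.1. With all 5 libraries, an alternative added after seeing the data, 352 genes were higher and 481 lower of 9194 tested. Of the 1136 called genes it could test, 619 kept their call and direction. Leaving out each of the 5 in turn gave 3 to 471 higher and 11 to 621 lower genes, of 7519 to 9776 tested. Counts were lowest without the control (3 and 11) or without 7 d (3 and 26). Without 28 d and without 60 d 372 and 380 genes were higher. In these fits Gbp2 reversed to -0.19 and Cxcl10 to -0.016 without the control, and Ccl7 to -0.093 without 7 d and -0.14 without 28 d. Leaving a library out of the 2-library fit left no residual degrees of freedom. The share of members moved to 38.8% and 10.6% (control and 7 d) at Cxcl3 of 0.05%, to 28.3% and 5.25% at 0.2%, to 39.6% and 8.92% with F of at least 3 and K under 0.1, and to 37.8% and 9.13% after thinning. With F of at least 3 and K under 0.1 it was 0% at 28 d, where 10 fibroblasts were left. For 7 d against control members, a minimum of 20 UMIs gave 840 higher and 404 lower genes, and 200 UMIs gave 184 and 104. Sums over few cells limit the 14 d, 28 d and 60 d values.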
